A study of Arabidopsis thaliana with 33 samples.

Results

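The male-sterile Arabidopsis thaliana mutants ms1 and nzz were set against each other by way of wild type. In the design text nzz, also written spl/nzz, is defective from the earliest steps of sporogenesis, and ms1 lacks viable pollen. The members are 8 of the 33 two-colour arrays of the study: the 4 arrays of ms1 against wild type and the 4 arrays of nzz against wild type, taken from their titles. For each gene probe the nzz over wild type ratio was subtracted from the ms1 over wild type ratio, both on the log2 scale. A positive difference means that the ratio was higher in ms1, whether ms1 lay above wild type or nzz lay below it.

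The tissue of ms1, nzz and wild type was the inflorescence meristem with floral buds up to stage 13, from 50 plants a sample. Each mutant had 2 arrays with its RNA in Cy5 and 2 with its RNA in Cy3, and wild-type RNA was in the other dye of the same array. The alleles, the plants' age and whether ms1 and nzz were set against the same wild-type RNA are not given in the labels. For comparison, 4 arrays held ap3, a mutant with the inflorescence meristem and buds up to early stage 10, against wild type of the same stages. The ap3 values are not part of the difference, but they entered the fit that estimated its spread and dye term. A further 21 arrays held ms1 against wild type in a flower series of 7 samples with 3 sets each, where sample 1 was mature flowers of stage 13 and sample 7 the youngest buds with the inflorescence meristem.

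SPOROCYTELESS/NOZZLE (SPL, the gene lost in nzz) encodes a nuclear regulator needed for the first sporogenous cells of the anther and the ovule. Without it, microsporocytes and the layers that surround them, including the tapetum, do not form properly. MALE STERILITY1 (MS1) encodes a PHD-finger protein that acts much later, in the tapetum after meiosis, where it is needed for the pollen wall and for the orderly breakdown of the tapetum. The tapetum is the secretory cell layer that feeds the developing microspores and supplies the material of their outer wall, the exine. Genes of the early tapetum and of sporogenous tissue are therefore of interest as genes that may depend on SPL without depending on MS1.

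The deposited values limit what can be read from these ratios. They were read as log10 ratios, turned to mutant over wild type and converted to log2. That the dye swaps had already been turned to one direction is an inference too. Neither this nor the base nor the numerator is stated, so the direction given here is likely and not settled: the opposite reading would exchange every higher and lower in the text. Read instead as ratios of the dyes, the table gave 27 calls, none among the 178 reported here, and 24 named genes changed sign. With base 2, every log2 value would be 3.32 times too large. Values stopped at a limit of 6.64 on this scale, reached by between 2.51% and 9.97% of the values of an array, and such a value is a bound. Of 11552 limited values on the 8 arrays, 98.1% pointed the way of the dye. Over the 21091 probes never missing or limited, arrays of one mutant with opposite dyes correlated at r = 0.118 to 0.325 in ms1 and 0.488 to 0.544 in nzz, and arrays with the same dye at 0.452 in ms1 and 0.745 to 0.753 in nzz. Over all probes the opposite-dye correlations were negative, at -0.396 to -0.202 in ms1 and -0.321 to -0.0636 in nzz, and the same-dye ones positive. The reading as turned values thus rests on the probes without limited values. The median ratio of an array lay between -0.08 and 0.07 in ms1 and between 0.02 and 0.13 in nzz. A ratio carries no level, so how strongly a gene was expressed is not known from it. These are whole inflorescences, in which fewer cells of a type and less RNA per cell cannot be told apart.

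The ms1 and nzz ratios differed at 178 of 26004 probes tested, or 0.685%, in limma's test with a dye term, at a p under 0.05 after Benjamini-Hochberg adjustment across all tested probes. The ratio was higher in ms1 at 170 probes (0.654%) and higher in nzz at 8 (0.0308%). At the 170 probes the median difference was 1.82, which is 3.54-fold, and the differences ran between 0.46 and 7.43. At 134 of the 170 the difference was at least 1, at 71 at least 2 and at 22 at least 4. The median difference over all probes was -0.07. The 4 ms1 arrays all lay above the 4 nzz arrays at 167 of the 170 probes, against 3.54% of all probes. At 6 of the 8 probes higher in nzz, all ms1 arrays lay below all nzz arrays, against 3.05% of all probes. Of the 178 probes, 94 carried 1 named gene and 84 were unnamed.

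Most of these differences were a fall in nzz beside an ms1 ratio near wild type. Of the 170 probes, 154 were called lower in nzz than in wild type, a call made at 6.91% of all probes, and none was called higher (8.32% of all). In ms1, 130 of the 170 were not called, 32 were called higher than wild type (0.434% of all probes) and 8 were called lower (1.74% of all). The median ratio over the 170 was 0.14 in ms1 and -1.59 in nzz. The ms1 ratio lay within 0.5 of 0 at 97 of them. The ratios had opposite signs at 109 of the 170, both were negative at 57 and both positive at 4. Since a large difference was what chose these probes, these counts describe them and are no further test. Taken from the other side, 1801 probes were called lower in nzz, and 154 of them (8.55%) differed between the mutants, 419 were also called lower in ms1, and 1236 met neither condition. Of the 113 probes called higher in ms1, 32 differed from nzz.

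**Figure D1:**
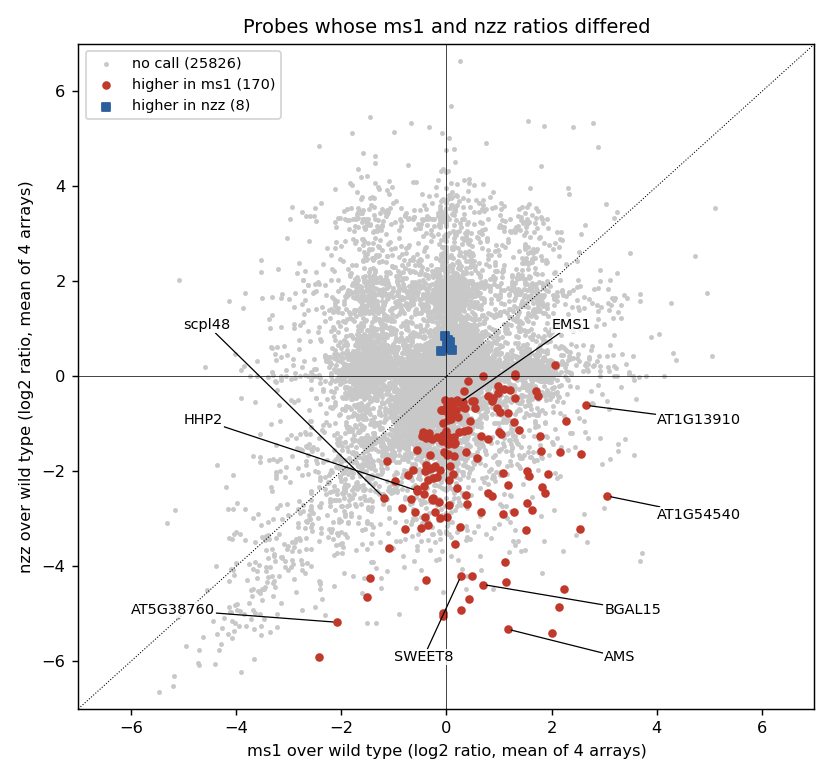
Each point is 1 of the 26004 probes tested, with its ms1 over wild type ratio on the horizontal axis and its nzz over wild type ratio on the vertical axis (log2, fitted over 4 arrays each), where the dotted line marks equal ratios. The 170 probes higher in ms1 (red circles) lie below the line, mostly near or right of 0 in ms1 and below 0 in nzz, and the 8 higher in nzz (blue squares) lie just above 0 in nzz and near 0 in ms1.

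Of the genes on the tapetum and exine lists, AMS, BGAL15 and SWEET8 had some of the largest differences, while other tapetum members were not called. AMS (ABORTED MICROSPORES, AT2G16910), a bHLH transcription factor of the tapetum, had ratios of 1.00, 1.39, 1.30 and 0.97 on the ms1 arrays, against -4.84, -4.87, -6.64 and -4.94 on the nzz arrays. All ms1 arrays lay above wild type and all nzz arrays far below it, and 1 nzz value was at the limit. The AMS difference was 6.49 ± 0.86 (SE, adjusted p = 0.0164), with a fitted ratio of 1.17 in ms1, which was not called, and -5.32 in nzz, which was called lower.

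BGAL15 (AT1G31740), a beta-galactosidase that stood on the list of tapetum genes, had the lowest adjusted p of the 178 probes. Its ratios were 1.05, 0.46, 0.77 and 0.51 on the ms1 arrays, against -4.10, -3.61, -4.89 and -4.93 on the nzz arrays. The difference was 5.08 ± 0.24 (SE, adjusted p = 0.000129). SWEET8 (AT5G40260, also known as RUPTURED POLLEN GRAIN1), a sugar transporter needed for exine formation, had ratios of 0.85, 0.18, 0.35 and -0.28 on the ms1 arrays, against -4.60, -4.25, -4.24 and -3.76 on the nzz arrays. The 4 ms1 values lay about wild type and the 4 nzz values did not come near them. The SWEET8 difference was 4.49 ± 0.56 (SE, adjusted p = 0.0131).

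EMS1 (AT5G07280), the receptor kinase through which cells of the early anther take on tapetal identity, differed in the same direction by much less. It had 0.51, 0.24, 0.32 and -0.04 on the ms1 arrays, against -0.36, -0.22, -0.95 and -0.68 on the nzz arrays. The difference was 0.81 ± 0.12 (SE, adjusted p = 0.0232), or 1.75-fold. EMS1 was called lower in nzz at a ratio of -0.55 and was not called in ms1 at 0.26.

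SPL itself was not called. Its ratios were 0.13, 0.11, -0.09 and 0.08 on the ms1 arrays, against -0.35, -0.29, -0.15 and -0.25 on the nzz arrays. The SPL values of the mutants did not overlap, with a difference of 0.32 ± 0.17 (SE, adjusted p = 0.432), and the nzz ratio of -0.26 was not called (adjusted p = 0.174). Where the probe lies relative to the lesion of the allele used is not known, so this is no check of the label. No probe carried the name MS1.

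Other measured members of the tapetum list did not pass the test. ATA20, an anther-specific gene of the tapetum, had -0.17, -1.03, -0.66 and -0.43 on the ms1 arrays, against -3.75, -3.62, -4.81 and -5.65 on the nzz arrays, with no overlap, and its difference of 3.89 ± 0.72 (SE) had an adjusted p of 0.0563. ATA27, a beta-glucosidase gene of the tapetum, had ratios of -3.91 in ms1 and -6.22 in nzz, with 2 nzz values at the limit, and a difference of 2.31 ± 1.22 (SE, adjusted p = 0.433). SHT, which acylates spermidine for the pollen coat, had -3.54 in ms1 and -5.01 in nzz, and a difference of 1.46 ± 1.89 (SE, adjusted p = 0.743). UND, a protease gene under MYB80 in the tapetum, had -1.55 in ms1, where 1 array was at the limit, and -0.13 in nzz, and a difference of -1.42 ± 1.22 (SE, adjusted p = 0.611). Of these 5 tapetum genes 4 were called lower in nzz (6.91% of all probes) and none in ms1 (1.74% of all), where none of 5 is near the background. The list was written with earlier results of these data known, so these counts are a description. Of the tapetal marker genes that define the cell type, DYT1, ATA7, A9 and MYB80 had no named probe, so AMS alone stands for them.

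Genes of mature pollen lay below wild type in both mutants on the direction used here, which was itself chosen partly from these genes, so that their side is no finding. Of 6 measured, 5 were called lower in ms1 (1.74% of all probes) and 5 in nzz (6.91% of all). None was called different between the mutants, and at a share of 0.685% over all probes none of 6 says nothing about the list. ACT12, an actin of pollen, had -1.95, -2.87, -3.33 and -2.62 on the ms1 arrays, against -4.56, -4.41, -3.83 and -3.77 on the nzz arrays. The ACT12 groups did not overlap, but the difference of 1.45 ± 0.29 (SE) had an adjusted p of 0.0671. The pectin methylesterase gene VGD1 had ratios of -3.43 in ms1 and -4.02 in nzz, and its relative VGDH1 had -4.22 in ms1 and -5.09 in nzz. Their differences were 0.59 ± 0.49 and 0.87 ± 0.59 (SE), so that both 0 and the size seen in ACT12 lay within 2 SE of each. ANX1, a receptor kinase of the pollen tube, had -3.07 in ms1 with 1 array at the limit, and -2.13 in nzz, and a difference of -0.94 ± 0.87 (SE).

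**Figure D2:**
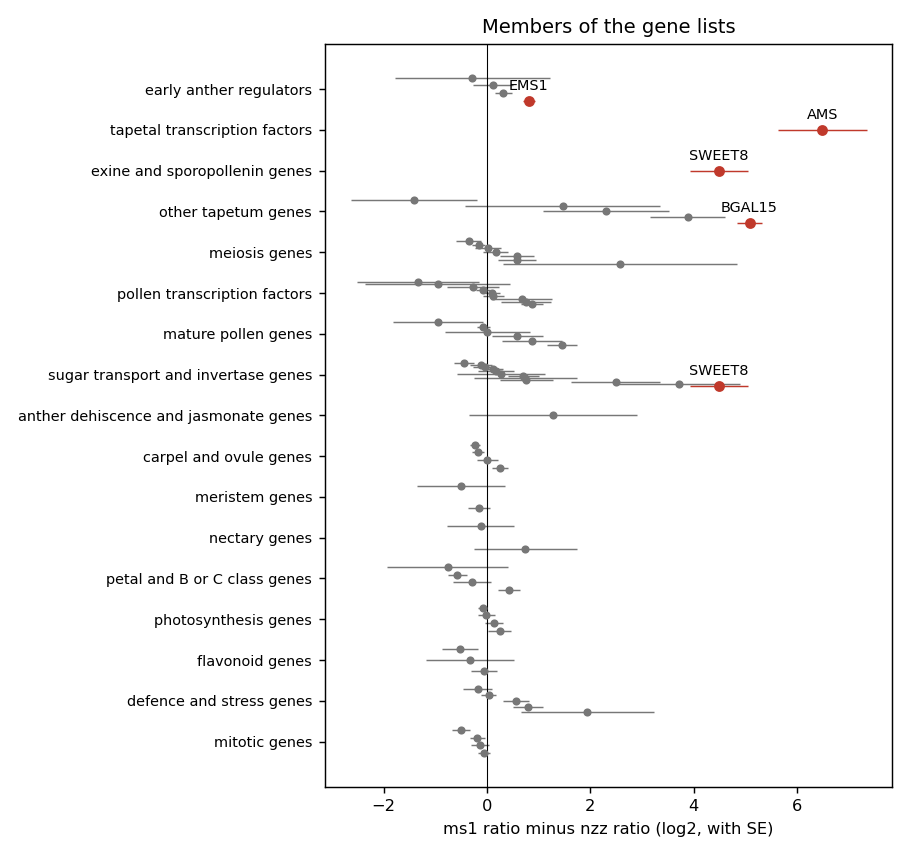
Each point is 1 measured member of a gene list, at its difference of the ms1 and nzz ratios (log2, horizontal axis) with its standard error as a bar, and red points passed the test. AMS, SWEET8, BGAL15 and EMS1 are the called members, SWEET8 being on 2 lists, while the carpel and ovule genes lie between -0.23 and 0.26 and ATSPO11-1 of the meiosis list lies at 2.58 with a wide bar.

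Across the gene lists, 4 measured genes were called, beside 0.685% of all probes, and all of them were higher in ms1: 1 of 4 early anther regulators (EMS1), the 1 tapetal transcription factor measured (AMS), the 1 exine gene measured (SWEET8, again 1 of 12 sugar transport and invertase genes) and 1 of 5 other tapetum genes (BGAL15). None was called among 7 meiosis genes, 9 pollen transcription factors, 6 mature pollen genes, 4 carpel and ovule genes, 2 meristem genes, 4 photosynthesis genes or 4 mitotic genes. The remaining lists, with 15 genes among nectary, petal, flavonoid, stress and dehiscence functions, had no call either. No list held a gene called higher in nzz. The lists were written with earlier results of these data known, so calls among their members are a description and no independent support. Lists of this size are too short for an absence of calls to stand apart from the share over all probes. The median difference was 0.22 for the early anther regulators, 2.31 for the other tapetum genes and 0.49 for the sugar genes, beside -0.07 over all probes. It was 0.17 for the meiosis genes, 0.30 for the mature pollen genes and -0.08 for the carpel and ovule genes. No gene of the callose or pollen coat lists had a named probe.

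Markers of other cell types gave differences of varied size, none of them called. The carpel and ovule genes lay between -0.23 and 0.26, among them INO, a YABBY gene of the ovule's outer integument, with a ratio of 0.24 in ms1 and 0.23 in nzz. CLV3, the peptide signal of the meristem, had -0.14 in ms1 and 0.02 in nzz, and a difference of -0.16 ± 0.22 (SE). SDS, a cyclin of meiosis, had 0.32 in ms1 and 0.49 in nzz, where it was called higher than wild type, and a difference of -0.16 ± 0.13 (SE, adjusted p = 0.594). Of the 7 meiosis genes measured, SDS was the 1 called higher in nzz (8.32% of all probes). None was called lower there (6.91% of all), and with 7 genes neither count is a result about the list. DMC1, ASY1 and SYN1 were not among the 7, so SDS alone stands for the sporogenous markers. AGL18, a MADS-box gene expressed in pollen, had -0.33 in ms1 and -1.21 in nzz, and a difference of 0.88 ± 0.21 (SE, adjusted p = 0.132), with no overlap of the arrays. PTL, a trihelix factor of the petal list, differed by -0.57 ± 0.19 (SE, adjusted p = 0.23), also without overlap, and JAG of that list by -0.76 ± 1.17 (SE). ATSPO11-1, of the meiosis list, had the widest spread, with values at the limit on both sides and a difference of 2.58 ± 2.26 (SE).

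The sugar transporters differed among themselves. SWEET8 was called, as was SWEET3 (AT5G53190), a member of the same family that was on no list and was singled out after its values were seen. SWEET3 had 0.43, 0.38, -0.36 and 1.05 on the ms1 arrays, against -2.71, -1.62, -2.74 and -2.93 on the nzz arrays, and a difference of 2.87 ± 0.51 (SE, adjusted p = 0.0483). SAG29 (SWEET15) had 1.66, 2.33, 1.53 and 1.44 on the ms1 arrays, against 0.06, 0.07, -1.36 and -6.64 on the nzz arrays. The nzz values of SAG29 were spread over the whole range down to the limit, and its difference of 3.71 ± 1.18 (SE) was not called (adjusted p = 0.216). SWEET7 had -1.43 in ms1 and -3.92 in nzz, and a difference of 2.49 ± 0.86 (SE, adjusted p = 0.244).

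Beyond the lists, 2 unnamed probes had the largest differences of all, 7.43 and 7.00. Among named genes the largest belonged to AT5G26320, with 2.45, 2.70, 2.65 and 1.15 on the ms1 arrays, against -6.64, -3.23, -4.04 and -3.98 on the nzz arrays. Its difference was 6.71 ± 0.98 (SE, adjusted p = 0.0232), with 1 nzz value at the limit. AT1G33430 had -0.07, 0.48, 0.01 and -0.67 on the ms1 arrays, against -4.36, -4.00, -5.96 and -5.89 on the nzz arrays. AT1G33430 thus lay at wild type in ms1 and 33.2-fold below it in nzz, with a difference of 4.99 ± 0.51 (SE, adjusted p = 0.00799). AT1G28375 followed the same pattern, with ratios of -0.06 in ms1 and -4.99 in nzz, as did AT2G28680, with 0.16 in ms1 and -3.53 in nzz. AT5G62080 had 0.42 in ms1 and -4.68 in nzz, and AT3G59480 had 0.65 in ms1 and -2.85 in nzz.

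A second set of the largest differences joined a fall in nzz to an ms1 ratio above wild type on every array. AT1G18960 had 2.53 in ms1 and -3.22 in nzz, AT5G44540 had 1.88 in ms1 and -2.46 in nzz, and AT3G59510 had 1.63 in ms1 and -2.81 in nzz. AT2G21430, AT3G07450, AT3G50580 and AT5G16920 had ms1 ratios of 1.56, 1.52, 1.07 and 1.12, and nzz ratios of -2.09, -3.23, -2.90 and -3.91 in that order. These 7 genes were called lower in nzz, while none of their ms1 ratios passed the test against wild type.

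**Figure D3:**
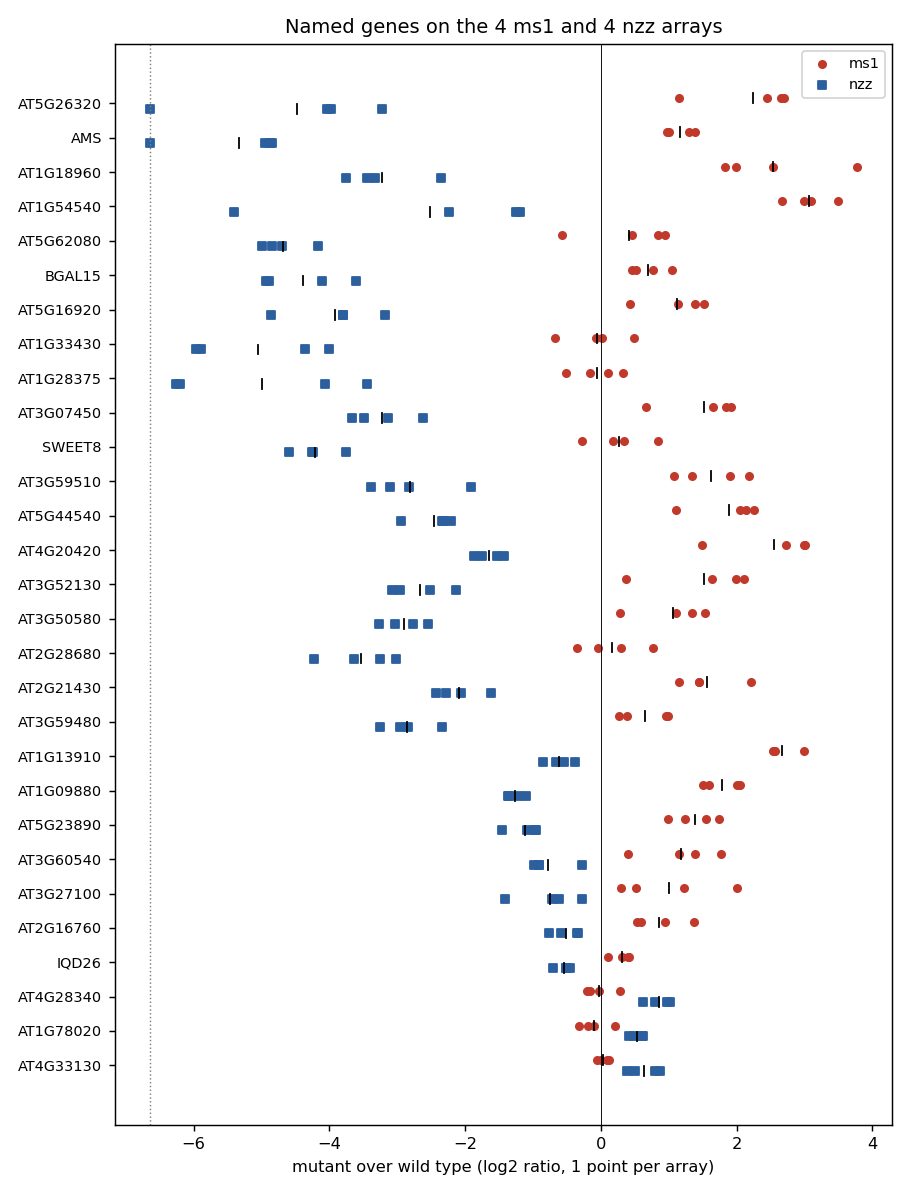
Each gene named by rule has its 4 ms1 arrays (red circles, upper line) and its 4 nzz arrays (blue squares, lower line) on a horizontal axis of log2 mutant over wild type, with black bars at the means and a dotted line at the limit of the table. The ms1 and nzz arrays do not overlap in any of the 29 genes, and the ms1 values of AMS lie between 0.97 and 1.39 while its nzz values lie at -4.84 or lower.

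At 9 named genes the calls against wild type were opposite, higher in ms1 and lower in nzz. The largest of these differences was at AT1G54540, with 3.49, 3.00, 3.09 and 2.67 on the ms1 arrays, against -1.25, -1.19, -5.41 and -2.23 on the nzz arrays. The AT1G54540 values were close together in ms1 and wide in nzz, and the difference was 5.58 ± 0.86 (SE, adjusted p = 0.0253). AT4G20420 had 3.00, 2.73, 3.01 and 1.50 on the ms1 arrays, against -1.87, -1.42, -1.75 and -1.53 on the nzz arrays, a difference of 4.2 ± 0.59 (SE, adjusted p = 0.0193). The other 7 were AT3G52130, AT1G09880, AT5G23890, AT3G60540, AT3G27100, AT2G16760 and IQD26, with differences between 0.86 and 4.2. IQD26 (AT3G16490), of the calmodulin-binding IQ-domain family, had the smallest, with 0.31 in ms1 and -0.55 in nzz.

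In another 16 of the 170 probes, ms1 was called higher than wild type and nzz was not called. AT1G13910 stood for these among the largest differences, with 2.54, 2.57, 2.99 and 2.55 on the ms1 arrays, against -0.66, -0.39, -0.86 and -0.54 on the nzz arrays. The difference was 3.27 ± 0.39 (SE, adjusted p = 0.011), and AT1G13910 was 6.33-fold above wild type in ms1. FACT (AT5G63560), an acyltransferase that joins caffeic acid to fatty alcohols, was singled out after its values were seen. FACT had 1.29, 2.06, 1.69 and 1.93 on the ms1 arrays, against -0.43, -0.43, -0.61 and -0.14 on the nzz arrays, a difference of 2.15 ± 0.31 (SE, adjusted p = 0.0229).

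At 8 probes both mutants were called lower than wild type and nzz was the lower of the pair. The named genes among them were AT5G38760 and scpl48, a serine carboxypeptidase-like gene, both singled out after their values were seen. AT5G38760 had -0.66, -1.64, -2.01 and -4.05 on the ms1 arrays, against -4.46, -4.34, -5.56 and -6.35 on the nzz arrays, a difference of 3.09 ± 0.51 (SE, adjusted p = 0.0348). The lowest ms1 array of AT5G38760 came close to the highest nzz array without overlap. The scpl48 values were -1.04, -0.97, -1.56 and -1.20 on the ms1 arrays, against -2.82, -2.42, -2.34 and -2.63 on the nzz arrays, a difference of 1.36 ± 0.24 (SE, adjusted p = 0.0442).

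Smaller differences were called at a further set of annotated genes, likewise singled out after their values were seen. HHP2, a heptahelical membrane protein gene, had -0.24, -0.67, -0.55 and -0.78 on the ms1 arrays, against -2.42, -2.40, -2.82 and -1.98 on the nzz arrays, and a difference of 1.84 ± 0.17 (SE, adjusted p = 0.00653). STR18, a sulfurtransferase, had a difference of 1.56, ALDH7B4, an aldehyde dehydrogenase, 1.02, and ATG8B, a ubiquitin-like protein of autophagy, 0.70. TET8, a tetraspanin, had 0.68, HAT2, a homeodomain-leucine zipper factor, 0.65, and DPL1, a sphingoid-phosphate lyase, 0.60. STR18, ALDH7B4, ATG8B, TET8, HAT2 and DPL1 were all called lower in nzz and not called in ms1. Their differences depended on the fit. Of 18 alternative fits, TET8 was called in 12, STR18 in 9, ALDH7B4 and HAT2 in 8, and ATG8B and DPL1 in 7. Among gene families collected by terms in their names, the called members were BGAL15 of 38 glycoside hydrolases, scpl48 of 63 proteases and ALDH7B4 of 41 oxidoreductases. Beside the 0.685% of all probes, 1 call in a family of that size is no result about it. Cytochrome P450 enzymes (18 tested), UDP-glycosyltransferases (46 tested), MADS-box factors (57 tested) and zinc finger proteins (30 tested) had no called member, and at that share none is no result either.

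The 8 probes higher in nzz differed by little. Their differences lay between -0.88 and -0.44, with a median of -0.65, and all 8 were called higher in nzz than in wild type and none in ms1. AT4G28340 had -0.20, 0.28, -0.16 and -0.02 on the ms1 arrays, against 1.02, 0.97, 0.80 and 0.62 on the nzz arrays, a difference of -0.88 ± 0.14 (SE, adjusted p = 0.0273). AT1G78020 had -0.11 in ms1 and 0.53 in nzz, and AT4G33130 had 0.04 in ms1 and 0.64 in nzz. The fourth named gene was AT1G68470, at -0.56, whose ms1 and nzz arrays overlapped. Of the 2168 probes called higher in nzz than in wild type these 8 were called different from ms1, but the number depended on the limited values: 42 were called higher in nzz when probes with such values were left out, and 32 when such values were set missing. AT1G78020 was called in 6 and AT4G33130 in 5 of 18 alternative fits.

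The differences held in each dye orientation. With the mutant in Cy5 and again with the mutant in Cy3, the ms1 arrays averaged above the nzz arrays at all 170 probes, and below them at all 8 of the others. Over all probes, 20.8% were positive in both orientations and 33.9% negative in both. The median difference over the 170 was 1.74 with the mutant in Cy5 and 1.68 with the mutant in Cy3. At 19 of the 170 the orientations differed by more than 1. The dye term itself was called at 5225 probes. Both orientations entered the fit that chose the probes, so this is a description.

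The number of calls depended on single arrays. A fit without nzz replicate 1 gave 34 calls, of which 32 were among the 178. A fit without ms1 replicate 1 gave 59, of which 49 were. Without ms1 replicate 2, 3 or 4 there were 99, 89 or 125 calls, with 76, 76 and 91 shared. Without nzz replicate 2, 3 or 4 there were 77, 81 or 89, with 69, 72 and 74 shared. All 40 called genes named by the rule or by annotation kept their direction in each of these fits. The mutants' arrays did not overlap at 167 of the 170 probes higher in ms1, and many of the 40 were chosen for that. A kept direction was thus largely fixed beforehand and is no test. BGAL15 was called in all 18 alternative fits that kept the reading of the values, AT1G33430 in 17 of 18, SWEET8 in 15 of 18 and AMS in 11 of 17. EMS1 was called in 9 of 18, AT5G26320 in 9 of 17, AT1G54540 in 8 of 18, scpl48 in 7 of 18 and SWEET3 in 5 of 18. AMS was lost without ms1 replicate 1 or 2, without nzz replicate 1, 2 or 3, and with a replicate block. The block also ended the calls of AT1G33430, SWEET8 and AT5G26320. SWEET8 was otherwise lost without ms1 replicate 1 and without nzz replicate 1.

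In ap3, where stamens and petals do not form and older buds had been removed, the 170 probes were lower than wild type more often than other probes were. The ap3 ratio was below 0 at 124 of 170 (72.9%), against 45.6% of all probes, and below -1 at 26 of 170, against 3.32% of all. All 4 ap3 arrays lay below 0 at 41 of the 170, against 7.81% of all probes. The test called 4 of the 170 lower (0.123% of all probes) and none higher, and leaving out ap3 replicate 1, 2, 3 or 4 gave 2, 0, 1 or 2 lower calls among the 170. Among the 4 was AT1G33430, with -4.34, -2.15, -1.76 and -2.21 on the ap3 arrays. SWEET8 had -3.13, -0.38, -2.61 and -1.17, all below 0, and AMS had -4.33, -1.14, -0.38 and 0.23, and neither was called. BGAL15 had -1.10, 0.07, -0.13 and -0.03 on the ap3 arrays. Of the 71 probes with a difference of at least 2, 67 had an ap3 ratio below 0, with a median of -0.64, and of the 99 with a smaller one 57 did, with a median of -0.03.

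The ap3 values leaned on 1 array. Replicate 1 was the lowest of the ap3 arrays at 115 of the 170 probes, against 26.1% of all probes, and its median over the 170 was -0.62, against -0.03, -0.04 and -0.06 for the other 3. Without it, 101 of 170 lay below 0, against 51.3% of all probes, and 17 lay below -1, against 4.64% of all. Without ap3 replicate 1 the median over the 170 was -0.05. The part of that array in the result beyond these values was not tested.

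The flower series of ms1 gave the samples in which these probes were called above or below wild type. At 53 of the 170 probes the ms1 ratio was called higher than wild type in at least 1 series sample, against 1.26% of all probes, at 15 it was called lower in at least 1, against 2.15% of all, and at 103 in none. Higher calls fell at 6 of 170 in sample 2 (0.154% of all probes), 36 in sample 3 (0.702%), 37 in sample 4 (0.617%), 34 in sample 5 (0.552%) and 14 in sample 6 (0.169%). None fell in samples 1 and 7, where 0 of 26084 and 4 of 26076 of all probes were called higher. At those shares none of 170 says nothing about these probes. Lower calls fell at 3 in sample 2 (0.376% of all probes), 7 in sample 3 (0.833%), 8 in sample 4 (0.652%), 9 in sample 5 (0.79%), 3 in sample 6 (0.713%) and 3 in sample 7 (0.552%). Calls in both directions were most frequent in buds of middle age, samples 3 to 5. Higher calls over all probes were also most frequent there, at 183, 161 and 144, against 40 in sample 2 and 44 in sample 6. The peak is therefore not particular to the 170. The median ratio of the 170 was highest in sample 6, at 0.33, close to 0.31 in sample 2, against 0.25, 0.26 and 0.17 in samples 3, 4 and 5. Over all probes the median was also highest in sample 6, at 0.08. Without set 3 of the series, 29 of the 170 were called higher in at least 1 sample and 6 lower, and without set 1, 7 were called lower. Higher calls in sample 6 numbered 5, 8 and 0 without sets 1, 2 and 3, those in sample 2 numbered 0, 1 and 0, and those in sample 5 numbered 25, 27 and 15. In samples 3 and 4 they numbered 21 to 27.

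**Figure D4:**
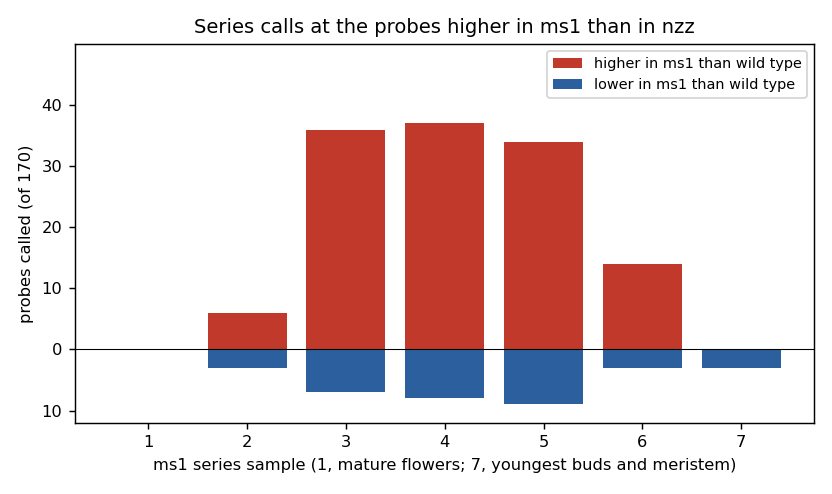
Bars count, of the 170 probes higher in ms1 than in nzz, those called higher (red, upward) or lower (blue, downward) in ms1 than in wild type in each series sample, with mature flowers at the left and the youngest buds at the right. Higher calls number 36, 37 and 34 in samples 3, 4 and 5 and 0 in samples 1 and 7. Of all probes, 0 of 26084 and 4 of 26076 were called higher in those last 2 samples.

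Series calls are given here by the call in whole ms1 inflorescences. Both are ratios of ms1 over wild type, and the same shares over all probes were not computed, so these counts are a description. Of the 32 called higher in ms1 inflorescences, 25 were called higher in the series. Of the 130 not called there, 28 were called higher in the series and 10 lower, and of the 8 called lower, 5 were called lower in the series. AT5G26320 had series ratios of 0.19, 0.43, 2.50, 3.66, 4.27, 2.1 and 0.12 in samples 1 to 7, and was called higher in samples 3 to 6. AT1G13910 had 0.34, 1.27, 4.01, 3.42, 2.04, 0.40 and -0.29, called higher in samples 3 to 5. Both genes rose in samples 3 to 5, and whether their highest samples differed was not tested.

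BGAL15 was called higher in sample 6 alone, at 4.72 ± 0.81 (SE, n = 3 arrays), with 3.12, 6.64 and 4.32 in sets 1, 2 and 3, the second of these at the limit. That call was lost without set 3. SWEET8 had 2.58, 2.26 and 2.51 in the 3 sets of sample 6, a ratio of 2.39 ± 0.64 (SE) that was not called (adjusted p = 0.13). Both genes had ratios between -0.77 and 0.12 in samples 3 and 4, where higher calls among the 170 probes numbered 36 and 37. Such calls also numbered 34 in sample 5, where BGAL15 had 1.88 and SWEET8 0.29, neither called. AMS was near 2 in samples 3 to 6, at 2.01, 2.03, 1.69 and 1.88, none of them called. In sample 7 AMS was called lower at -4.32 ± 0.70 (SE), on 2 values that were far apart, -1.99 in set 2 and -6.64, at the limit, in set 3. The value of set 1 was missing there.

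HHP2 changed sign along the series. Its ratios were 0.08, 1.54, 2.44, 1.57, -2.62, -2.36 and -1.84 in samples 1 to 7, called higher in samples 2 to 4 and lower in samples 5 to 7. HHP2 was the 1 probe of the 170 called in both directions. In whole ms1 inflorescences its ratio was -0.56 and was not called. SWEET3 was called higher in sample 3 at 3.40 and in sample 4 at 2.50, with ratios between -0.27 and 0.15 in samples 5 to 7. The ratio of scpl48 was -1.06, -2.38, -2.11 and -1.56 in samples 2 to 5, all called lower, and AT5G38760 was called lower in samples 4 to 7, with ratios between -4.21 and -3.33. AT1G33430 and AT1G28375, which lay at wild type in ms1 inflorescences, were called in no series sample.

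**Figure D5:**
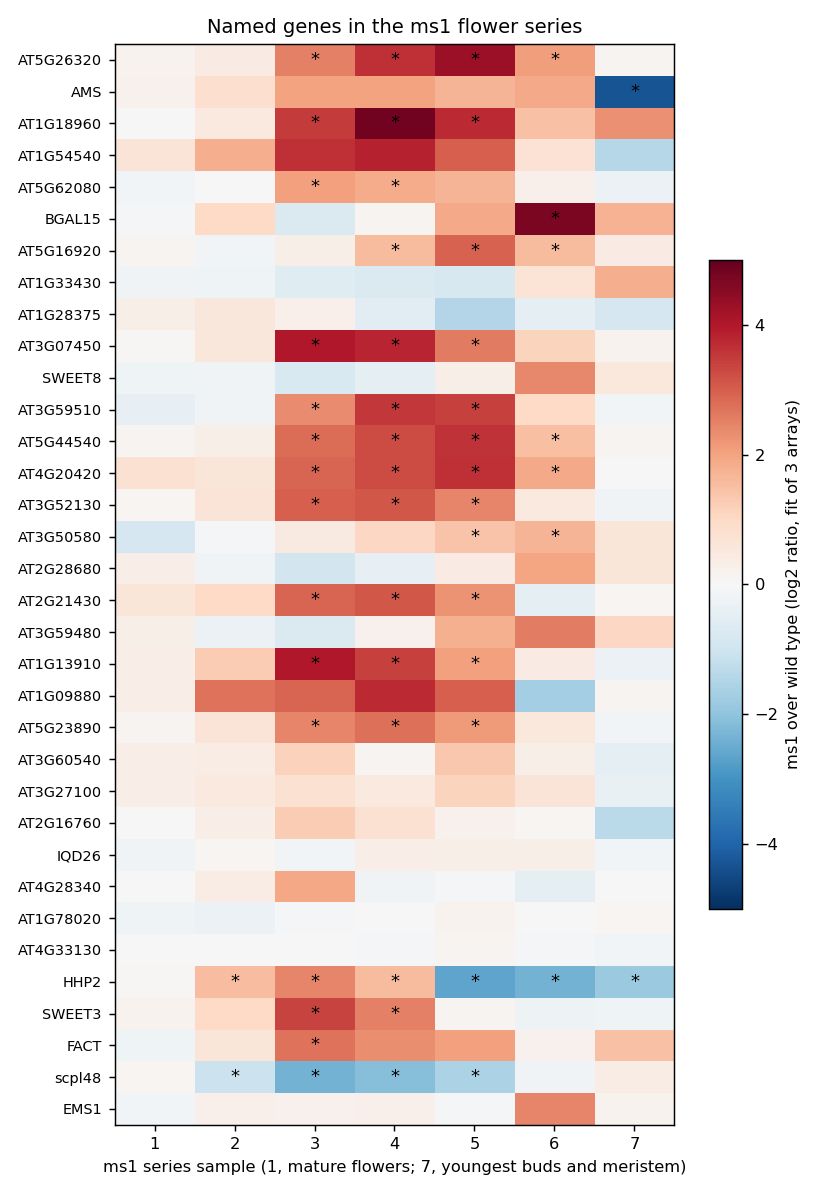
Rows are the genes named by rule with HHP2, SWEET3, FACT, scpl48 and EMS1, and columns are the 7 samples of the ms1 flower series, coloured by the ms1 over wild type ratio (log2, red above and blue below wild type), with a star where the test called it. Stars on red cluster in samples 3 to 5, BGAL15 has its star in sample 6, and HHP2 is red in samples 2 to 4 and blue in samples 5 to 7.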

How the data were processed

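The authors deposited 1 normalized table of 33 arrays, whose values were read as log10 ratios; the sources used here give neither base, direction nor normalization. Every value was multiplied by -3.32 to give log2 mutant over wild type, with the sign chosen from the design text's account of the mutants and the side on which pollen genes lie. Of 26540 lines, 450 controls were left out; 13960 of 26090 gene probes carried 1 gene name, 13912 of them current in RefSeq's TAIR10.1 annotation, and 12130 were unnamed. Probes needed 3 of 4 values in each mutant. limma 3.58.1 in R 4.3.3 was fitted to the 12 ap3, ms1 and nzz arrays with 1 coefficient a group and a dye term, the ms1 minus nzz difference being a coefficient of its own. The 21 series arrays were fitted with 1 coefficient a sample and a dye term, with 2 of 3 values needed. That dye term also separated set 2 from sets 1 and 3. Calls needed a p under 0.05 after Benjamini-Hochberg adjustment across all tested probes. The fit was tested on simulated data.

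Genes named were, among called probes with 1 current gene, no overlap between the mutants' arrays and at most 1 limited value, the 20 with the largest differences higher in ms1, those higher in nzz (up to 10), those called in both mutants with opposite signs (up to 10), all called list members with up to 4 others a list, and SPL and AMS. Gene lists were matched by symbol, 1 probe a gene. Members and lists were chosen with earlier results of these data known. The labels speak of independent samples but leave unsaid whether each of a mutant's 4 arrays had its own, and p-values measure the spread between these arrays. Residuals of same-numbered ms1 and nzz arrays after the dye term correlated at -0.20, 0.29, 0.20 and -0.01. These mixed values do not settle whether numbers pair the arrays, and the main fit did not pair them. The number of arrays limits the precision. Alternatives covered the arrays fitted, the dye term, centring, scaling, limited and missing values, the reading of the values, the variance model and each array left out.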

Additional observations from a re-analysis of the deposited data

Results flagged for a closer look

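Among 91 genes examined in each mutant, 13 of 182 groups of 4 arrays held 1 array far from the other 3 by Dixon's criterion, and chance flags about 1 in 20 groups. Of the called genes, AT5G26320 was at 1.15 on ms1 replicate 4, against 2.45 to 2.70 on the other ms1 arrays. AMS was at the limit of -6.64 on nzz replicate 3, against -4.94 to -4.84. AT1G13910 was at 2.99 on ms1 replicate 3, against 2.54 to 2.57. AT3G60540 was at -0.28 on nzz replicate 4, against -0.99 to -0.92. SWEET3 was at -1.62 on nzz replicate 2, against -2.93 to -2.71. The group means of these 5 genes include those arrays.

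Among uncalled list members, ROXY2, UND, AGL30 and ANX1 were each at the limit of -6.64 on ms1 replicate 2, an array with the mutant in Cy3. ROXY2 was between -0.35 and 0.60 on the other ms1 arrays, UND between -0.27 and 0.59, AGL30 between -0.69 and 0.19 and ANX1 between -2.19 and -1.44. JAG was at -0.95 on the same array, against 0.08 to 0.27. RBE was at 1.22 on ms1 replicate 3, against -0.36 to -0.24. SPO11-2 was at 0.83 on nzz replicate 4, against -0.84 to -0.58, and AGL18 at -1.01 on nzz replicate 2, against -1.30 to -1.26.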

How the results depend on the processing

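The 178 calls were 170 higher in ms1 and 8 higher in nzz. The 8 ms1 and nzz arrays fitted alone, without ap3, gave 184 calls (175 and 9), of which only 101 were among the 178. Arrays scaled to one spread gave 107 calls (105 and 2), of which 102 were among the 178. Leaving out probes with limited values gave 318 (276 and 42; 174 shared), and setting limited values missing gave 308 (276 and 32; 177 shared). Without a dye term 2 probes were higher in nzz, and with centred arrays 5. Leaving out each array gave 34 to 125 calls, 33 to 109 higher in ms1 and 0 to 16 higher in nzz, with fewer arrays in the fit. The replicate block left 9 calls, all higher in ms1 and 0 in nzz, with 8 of them shared. With the block 3626 probes had an unadjusted p under 0.05 (3705 without the block). Whether numbers pair the arrays was not settled, as same-numbered residuals correlated at -0.20, 0.29, 0.20 and -0.01. Of the 170, the 32 called higher in ms1 became 19 with the block and 11 to 26 with an array left out; the 8 called lower became 5 with the block, 13 with limited values missing and 4 to 9 with an array left out. List members called fell to 1 with the block and 1 to 4 with an array left out. In the series, leaving out a set gave 29 to 40 higher and 6 to 14 lower. With an ap3 array left out, an alternative chosen after seeing the data, 101 to 129 of 170 were below 0. Of 40 named called genes, 39 stayed called with centred arrays, 31 without the dye term, 26 with the 8 arrays alone, 3 with the block and 6 to 23 with an array left out, and none of the 40 changed sign under these. With an array left out, the kept sign was largely fixed by choosing genes whose arrays did not overlap. A reading of the values as ratios of the dyes gave 27 calls (14 and 13), none shared with the 178, 0 of the 170 called in nzz or in ms1, and 0 list members. The sign then turned at 24 named genes: AT5G26320 to -0.78, AT1G18960 to -0.11, AT5G62080 to -0.23, AT3G07450 to -0.052, SWEET8 to -0.53, AT5G44540 to -0.39, AT4G20420 to -0.45, AT3G52130 to -0.18, AT3G50580 to -0.13, AT2G21430 to -0.12, AT3G59480 to -0.28, AT1G13910 to -0.014, AT4G28340 to 0.30, AT1G78020 to 0.13, AT4G33130 to 0.19, AT1G09880 to -0.0018, AT3G60540 to -0.46, AT3G27100 to -0.30, AT2G16760 to -0.042, HHP2 to -0.17, HAT2 to -0.19, TET8 to -0.038, ALDH7B4 to -0.22 and ATG8B to -0.065. That reading turns arrays of opposite dye against each other; the cause of the other changes was not tested.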
